A study of Bos taurus with 12 samples.

Results

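Collagens, the other structural proteins of the extracellular matrix, the enzymes that build, cross-link and cut them, and markers of the fibroblasts that make them were followed as a set of 46 genes in biceps brachii muscle of bulls. They are 46 of the 19713 genes with a probe on the array. The genes were named as a list, chosen with earlier results of these data known. A probe was assigned to a member through its gene name, gene number, accession or description. Every member had at least 1 probe, and for the 5 members with more than 1 the brightest probe on average was used. To be tested, a probe had to be well above background on 4 or more of the 12 arrays, and 44 members passed. COL14A1, a fibril-associated collagen, and OGN, osteoglycin, were above background on 1 control array each and on no treated array, so they were not tested. The members fall into 8 kinds by role: fibrillar and fibril-associated collagens, collagen VI, basement membrane, elastic fibre and adhesive glycoproteins, small leucine-rich proteoglycans, collagen processing, proteases with their inhibitors, and fibroblast markers with growth factors.

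Muscle fibres are held in sheaths of connective tissue that carry force from the fibre to the tendon. Fibroblasts between the fibres secrete most of the fibrillar collagen, while a thin basement membrane of laminins, nidogen and network-forming collagens coats each fibre and each capillary. Glucocorticoids are known to lower collagen synthesis in skin and other connective tissues, and beta-adrenergic agonists are known for increasing muscle mass in cattle.

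The study held 24 male cattle aged 18 to 20 months, 8 per group, and the 4 animals of each group with the best RNA were hybridised, each to its own array. Control animals received no drug. Dexamethasone, a synthetic glucocorticoid, was given by feed for 42 days at 0.75 mg per head. The combination group received 0.66 mg of dexamethasone per head for 21 days, and clenbuterol, a beta-adrenergic agonist, for 28 days in amounts of 2 mg per head (week 1), 4 mg (week 2) and 6 mg (weeks 3 and 4). The treated groups therefore differ in dexamethasone dose and duration as well as in clenbuterol. Levels are log2 signals with each array's 75th percentile set to 0, and arrays are numbered 1 to 4 within a group. In whole muscle, fewer cells of a type and less RNA per cell cannot be told apart.

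Signals stood well above background on 53.2% to 68.7% of the spots of an array. Precision is limited by the number of arrays. The 12 muscle fibre markers were well above background on all 12 arrays. Scan day 2 held control 4, dexamethasone 1 to 3 and combination 1 to 3, so only that day held all groups. Controls 1 to 3 shared slide 1 and scan day 1. Slide 2 held control 4 and dexamethasone 1 to 3, and slide 3 held combination 1 to 3. Dexamethasone 4 and combination 4 each had a slide and scan day of their own. No slide held both treated groups, so slide and treatment cannot be told apart between them. Slides were read from the file headers, and the label code of dexamethasone 4 names another slide. Control 4 and dexamethasone 1 stood apart from their groups in some matrix genes (COL12A1 and several glycoproteins and proteoglycans), and counts are given with and without them. The mean level of the 44 measured members, set against the control mean, was -0.20, -0.05, 0.07 and 0.18 on controls 1 to 4. It was 0.05, -0.62, -1.04 and -1.13 on dexamethasone 1 to 4, and -0.49, 0.19, -0.24 and 0.43 on combination 1 to 4. Dexamethasone 2 to 4 lay below every control, dexamethasone 1 did not, and the combination arrays lay on both sides of the controls.

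**Figure D1:**
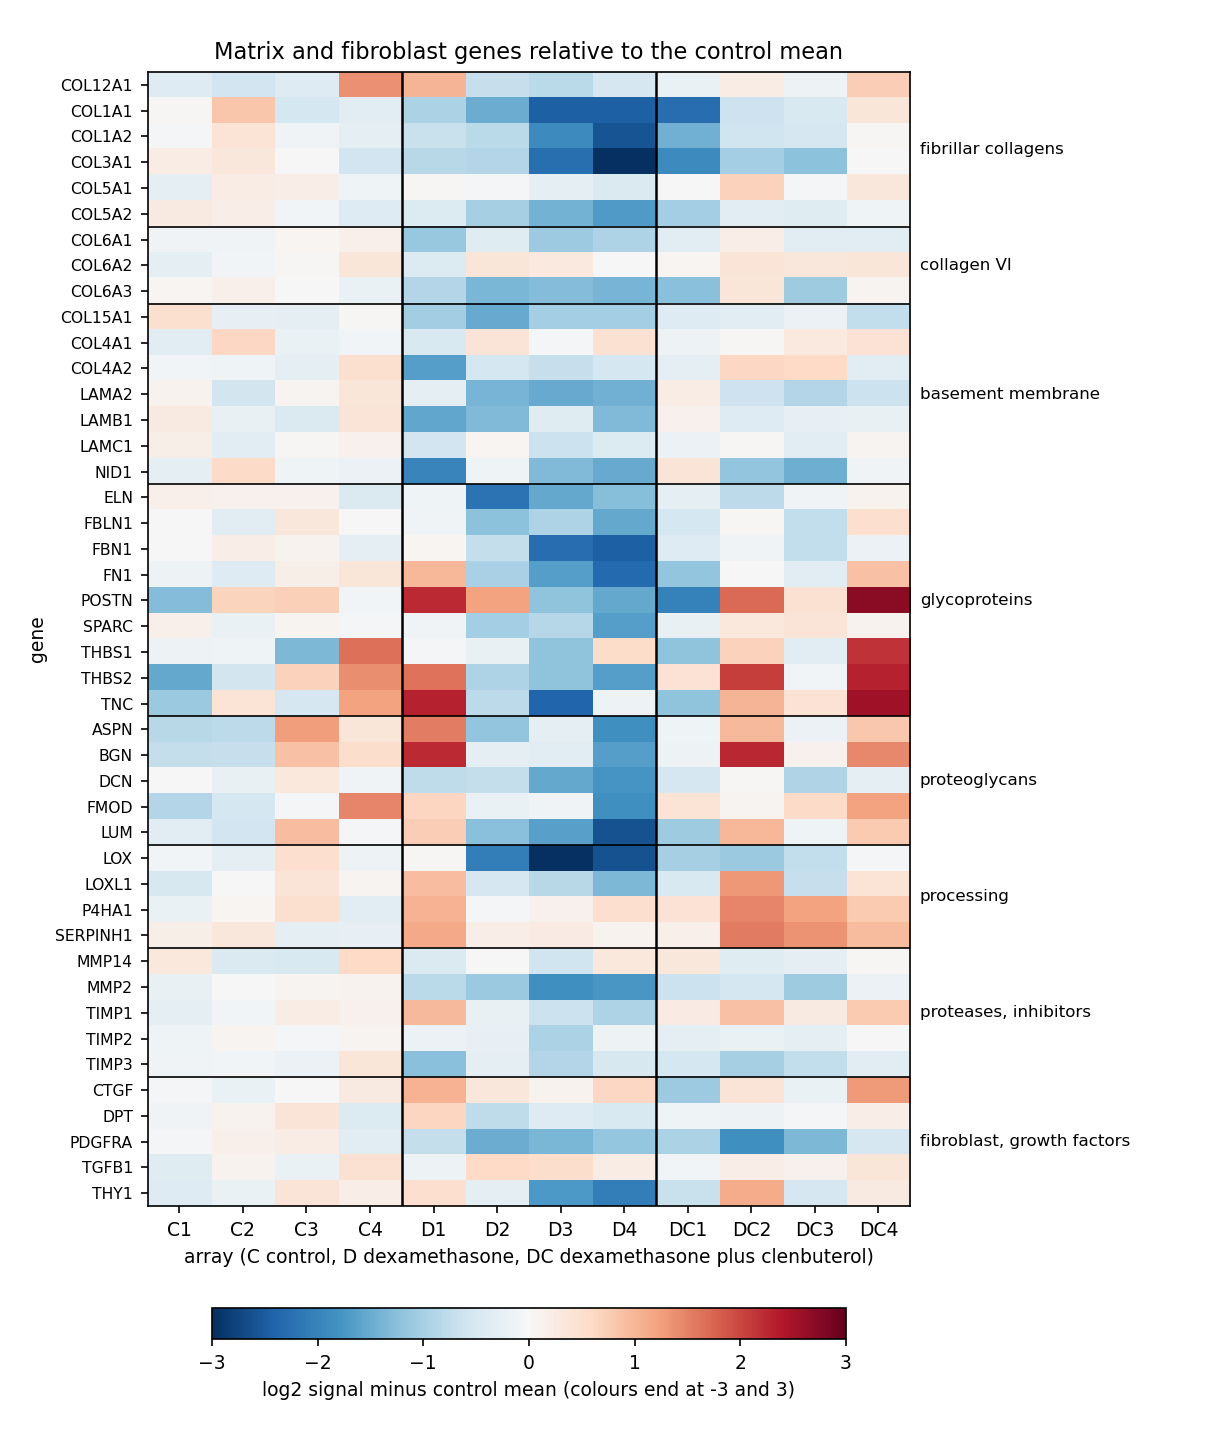
Level of the 44 measured genes (rows, grouped by role) on each of the 12 arrays (columns), as log2 signal minus the mean of the 4 controls, with blue for lower and red for higher. Dexamethasone 2 to 4 are blue in most rows, dexamethasone 1 is blue for basement membrane genes and red for many glycoproteins and proteoglycans, and the combination columns are mixed.

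Against control, the matrix genes were shifted downwards after dexamethasone, and COL15A1, a collagen of the basement membrane zone, and MMP2, a protease that cuts basement membrane and denatured collagens, fell. These were the only 2 members called lower by limma at an adjusted p under 0.05, and 0 were called higher, where 0.586% of the 13660 genes tested were called lower and 0.0293% higher. The median log2 change of the 44 members was -0.79, against 0.03 over all genes, and 37 of the 44 (84.1%) lay below 0, against 45.4% of all genes. At an unadjusted p under 0.05, 20 members (45.5%) were lower and 0 higher, against 6.87% of all genes lower. In 13 members (29.5%) every dexamethasone array lay below every control, which held for 3.92% of all genes. Those members were COL1A1, COL1A2, COL3A1, COL5A2, COL4A2, COL15A1, COL6A1, COL6A3, DCN, MMP2, TIMP2, TIMP3 and PDGFRA. Because the list was chosen with earlier results of these data known, its shares beside those of all genes are descriptions and no test. Adjusted p-values between 0.05 and 0.1 were found for COL6A1 (log2 change -0.87), DCN (-1.20), PDGFRA (-1.18) and LAMB1 (-1.14), which did not pass. Both calls were lost with the scan day as a 2-level block (limma adjusted p = 0.088 for COL15A1 and 0.113 for MMP2), where 13 genes were called in all. With control 4 and dexamethasone 1 both left out, a setting chosen after the values were seen, 7 members and 197 genes in all were called. The members' median was -0.52 without dexamethasone 4 and -0.51 with another background correction (normexp). It was -0.81 within scan day 2, where control 4 is the only control. Outside that day dexamethasone 4 (scan day 3) stands alone against controls 1 to 3 (scan day 1), with a median of -1.29. That value lies within no single scan day.

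After the combination no member was called against control, where 0.0293% of all genes were called lower and 0.0146% higher. The median log2 change was -0.05, with 23 members below 0 and 21 above, against 0.03 over all genes. Unadjusted p-values under 0.05 were found for 3 members lower (6.82%) and 2 higher (4.55%), beside 5.15% and 6.98% of all genes. PDGFRA and TIMP3 lay below every control on all 4 combination arrays and TIMP1 above every control, beside 3.72% and 4.51% of all genes. The median was -0.34 within scan day 2, against control 4 alone. It was 0.25 for combination 4 alone (scan day 4) against controls 1 to 3 (scan day 1). Each value rests on a single array of 1 group, so the difference in sign cannot be read as a difference between scan days.

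Set against dexamethasone alone, 42 of the 44 members (95.5%) had a higher mean in the combination group, against 52.3% of all genes, with a median log2 difference of 0.73 against 0.02. None was called, where 0.0146% of all genes were called higher and 0% lower. Before adjustment, 12 members (27.3%) had a p under 0.05 with the combination higher, beside 6.68% of all genes, and 0 with it lower. COL15A1, COL4A2 and COL6A1 had no overlap between the groups, all higher in the combination, beside 2.53% of all genes. The smallest adjusted p was 0.193 (limma), for SPARC. Within scan day 2, where 3 arrays of each treated group were scanned, the median difference was 0.35 and 39 members lay above 0. Those arrays lay on separate slides by group, so slide and treatment cannot be told apart there. The comparisons share arrays, so they are not independent of one another.

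**Figure D2:**
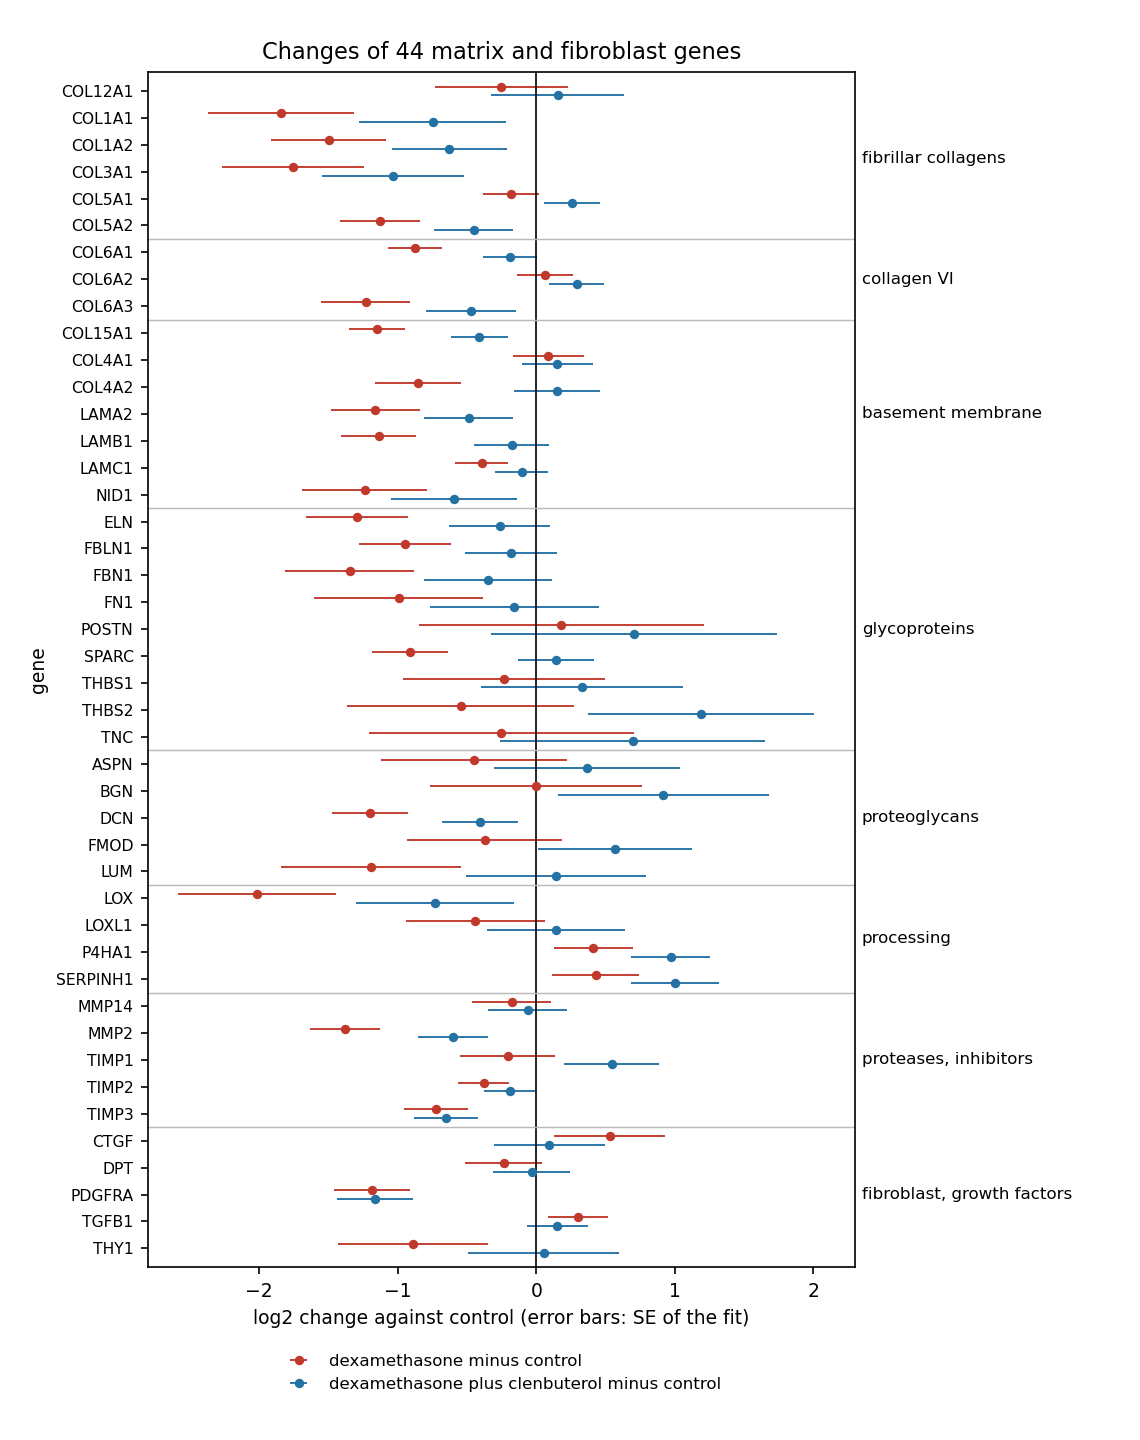
Log2 change against control (horizontal axis, with the SE of the fit) of the 44 measured genes for dexamethasone in red and dexamethasone plus clenbuterol in blue. The red points of 37 genes lie below 0, and the blue points divide into 23 below and 21 above. Both sets use the same 4 controls.

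Fibrillar collagens, the rope-like proteins that bear tension in the sheaths, had log2 changes below 0 after dexamethasone in all 6 measured members, with a median of -1.31, and none was called. COL1A1, a chain of type I collagen, read 2.90, 3.69, 2.33 and 2.54 on controls 1 to 4, 1.91, 1.37, 0.41 and 0.41 on the dexamethasone arrays, and 0.58, 2.25, 2.41 and 3.23 on the combination arrays. All dexamethasone arrays were below all controls, while the combination spanned both groups, from array 1 near the lowest dexamethasone values to arrays 3 and 4 inside the control range. Its mean was 3.58-fold lower after dexamethasone (log2 change -1.84, SE 0.53, 4 arrays per group, limma adjusted p = 0.163). COL1A2, the partner chain of type I collagen, read 2.37, 2.81, 2.29 and 2.14 in controls, 1.72, 1.58, 0.50 and -0.19 after dexamethasone, and 0.97, 1.80, 1.90 and 2.43 after the combination. It followed COL1A1 in the order of the dexamethasone arrays, with arrays 1 and 2 highest, and only combination 4 lay inside the control range. COL5A2, a chain of the type V collagen that nucleates type I fibrils, read 0.90, 0.83, 0.54 and 0.23 in controls, 0.22, -0.38, -0.79 and -1.07 after dexamethasone, and -0.39, 0.32, 0.27 and 0.50 after the combination. Dexamethasone 1 lay only just under the lowest control, and the log2 change was -1.13 ± 0.29 (limma adjusted p = 0.112). COL3A1, the collagen of fine reticular fibres, had a log2 change of -1.76 after dexamethasone and -1.04 after the combination. COL5A1, the other main type V chain, changed by -0.18 and 0.26, and COL12A1, which coats collagen fibrils, by -0.25 and 0.15. The type I and III chains had log2 changes of -1.84 to -1.497 after dexamethasone, and differences between members were not tested. The SEs were 0.20 for COL5A1 and 0.48 for COL12A1. The COL12A1 change was -1.53 within scan day 2, against control 4 alone, and -0.06 for dexamethasone 4 against controls 1 to 3.

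Collagen VI forms beaded filaments that link the basement membrane to the fibrils around it, and its loss causes muscular dystrophy in humans. None of its 3 chains was called, and differences between chains were not tested. COL6A1 read 0.26, 0.25, 0.43 and 0.52 in controls, -0.76, 0.01, -0.72 and -0.56 after dexamethasone, and 0.04, 0.55, 0.05 and 0.06 after the combination. The dexamethasone arrays lay below both other groups without overlap, with a log2 change of -0.87 ± 0.20 (limma adjusted p = 0.0773). COL6A3 read 2.39, 2.47, 2.32 and 2.13 in controls, 1.46, 0.96, 1.02 and 0.94 after dexamethasone, and 1.07, 2.70, 1.26 and 2.40 after the combination. Here the combination split, with arrays 1 and 3 at dexamethasone levels and arrays 2 and 4 at or above control levels. COL6A2 read -1.74, -1.53, -1.40 and -1.09 in controls, -1.85, -1.08, -1.15 and -1.43 after dexamethasone, and -1.38, -1.05, -1.10 and -1.07 after the combination. Its groups overlapped throughout, and the log2 change after dexamethasone was 0.06 ± 0.20 (limma adjusted p = 0.934), against -1.23 ± 0.32 for COL6A3 (limma adjusted p = 0.125).

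Basement membrane genes had a median log2 change of -1.14 after dexamethasone over 7 measured members and -0.18 after the combination. Their mean over genes was lower than in every control on all 4 dexamethasone arrays. The same held for fibrillar collagens, collagen VI and proteases with inhibitors. COL15A1, whose product anchors the basement membrane to the fibrils outside it, read 2.12, 1.40, 1.38 and 1.68 in controls, 0.61, 0.12, 0.62 and 0.63 after dexamethasone, and 1.26, 1.31, 1.46 and 0.91 after the combination. Every dexamethasone array was below every array of both other groups, and the combination overlapped the controls only through array 3. The group means were 1.65 ± 0.34, 0.50 ± 0.25 and 1.24 ± 0.23 (SD, n = 4), and the fall after dexamethasone was 1.15 on the log2 scale (SE 0.20, limma adjusted p = 0.0311). The difference between the treated groups was 0.74 (limma adjusted p = 0.219). After dexamethasone the COL15A1 change was -1.23 within scan day 2, against control 4 alone, and -1.003 for dexamethasone 4 against controls 1 to 3. Its call was lost with 10 of 24 other settings, among them either scan day block and leaving out control 1, 2 or 4 or dexamethasone 2 or 3, with limma adjusted p-values from 0.0151 to 0.325 and log2 changes from -1.24 to -0.99 over all 24.

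LAMB1 and LAMA2 encode chains of laminin, the protein that organises the basement membrane, and LAMA2 is the alpha chain of the muscle fibre. LAMB1 read 1.27, 0.79, 0.58 and 1.40 in controls, -0.55, -0.31, 0.66 and -0.31 after dexamethasone, and 1.15, 0.63, 0.75 and 0.80 after the combination. Only dexamethasone 3 reached the control range, and the log2 change was -1.14 ± 0.27 (limma adjusted p = 0.0899). LAMA2 read 1.97, 1.31, 1.94 and 2.22 in controls, 1.58, 0.47, 0.34 and 0.41 after dexamethasone, and 2.08, 1.23, 0.97 and 1.22 after the combination. In LAMA2 it was dexamethasone 1 that lay inside the control range, the other 3 arrays being below it. COL4A2, a chain of the collagen network of the basement membrane, had a log2 change of -0.85 with no overlap against controls, and NID1, nidogen, which ties laminin to that network, of -1.24. The NID1 probe was above background on 2 of the 4 dexamethasone and 3 of the 4 combination arrays, so the size of its change is uncertain. LAMC1, the laminin gamma chain, had a log2 change of -0.39. COL4A1, the usual partner of COL4A2, had one of 0.09, but its probe was above background on only 5 of the 12 arrays. Averaged over the 7 measured basement membrane genes, the dexamethasone arrays stood at -1.08, -0.64, -0.80 and -0.83 against the control mean, and the controls between -0.17 and 0.16. The combination arrays stood between -0.32 and -0.04, above every dexamethasone array.

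**Figure D3:**
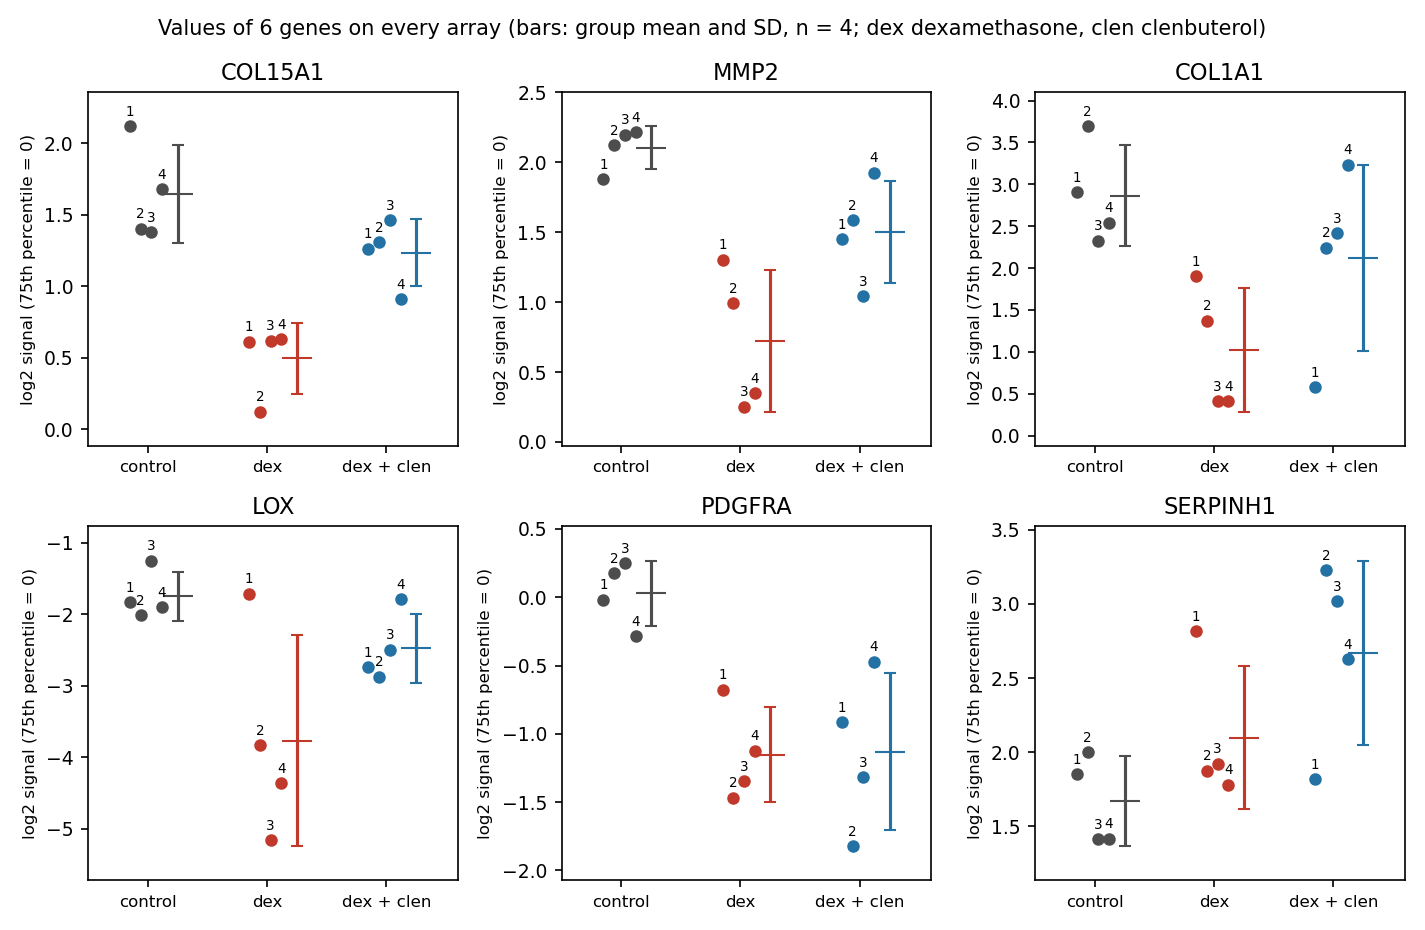
Log2 signal (75th percentile of the array set to 0) of 6 genes on each array, numbered within its group, with the group mean and SD (n = 4) as bars. COL15A1 and MMP2 show dexamethasone below control without overlap, LOX shows dexamethasone 1 among the controls, PDGFRA is low in both treated groups, and SERPINH1 is highest in combination 2 and 3.

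Elastic fibre and adhesive glycoproteins had a median log2 change of -0.91 after dexamethasone over 9 members and 0.15 after the combination, with none called. SPARC, a collagen-binding glycoprotein that helps fibril assembly, read 5.09, 4.75, 5.03 and 4.89 in controls, 4.83, 3.91, 4.09 and 3.28 after dexamethasone, and 4.71, 5.26, 5.32 and 5.05 after the combination. Dexamethasone 2 to 4 lay below all other arrays while dexamethasone 1 lay inside the control range, and the difference between the treated groups was 1.06 ± 0.27 (SE, limma adjusted p = 0.193). ELN, elastin, read -2.02, -2.05, -2.04 and -2.62 in controls, -2.32, -4.41, -3.73 and -3.47 after dexamethasone, and -2.46, -2.96, -2.30 and -2.07 after the combination. Its pattern was the same, with dexamethasone 1 among the controls and the other 3 arrays below everything else. The ELN probe was above background on 3 of the 4 dexamethasone arrays. FBLN1, fibulin, a glycoprotein of elastic fibres and basement membranes, read 1.93, 1.58, 2.27 and 1.90 in controls, 1.83, 0.70, 0.99 and 0.38 after dexamethasone, and 1.38, 1.96, 1.19 and 2.41 after the combination. Again only dexamethasone 1 reached the controls. FBN1, fibrillin, the microfibril scaffold of elastic fibres, had a log2 change of -1.35 after dexamethasone and FN1, fibronectin, of -0.99. The FBN1 probe too was above background on 3 of the 4 dexamethasone arrays. Within each of THBS1, THBS2, TNC and POSTN, matricellular proteins known for tissue repair and mechanical load, levels of single animals spread over more than 3 log2 units, and changes after dexamethasone of -0.23, -0.55, -0.25 and 0.18 had SEs of 0.73, 0.82, 0.96 and 1.03. No shift in these 4 genes could be detected with 4 arrays per group.

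Small leucine-rich proteoglycans bind collagen fibrils and set their diameter and spacing. DCN, decorin, read 4.44, 4.21, 4.74 and 4.33 in controls, 3.66, 3.71, 2.90 and 2.65 after dexamethasone, and 3.93, 4.47, 3.52 and 4.16 after the combination. All dexamethasone arrays were below all controls, and the log2 change was -1.20 ± 0.27 (limma adjusted p = 0.0786). LUM, lumican, read 0.51, 0.25, 1.76 and 0.80 in controls, 1.57, -0.43, -0.80 and -1.79 after dexamethasone, and -0.23, 1.82, 0.69 and 1.61 after the combination. Dexamethasone 1 was near the highest control, and the other dexamethasone arrays were below all other samples. FMOD, fibromodulin, read -1.26, -0.92, -0.45 and 1.08 in controls, 0.27, -0.59, -0.48 and -2.23 after dexamethasone, and 0.03, -0.31, 0.20 and 0.82 after the combination. Control 4 was the highest array for FMOD and dexamethasone 4 the lowest, and the groups overlapped. BGN, biglycan, had a mean of 1.33 in both controls and dexamethasone, where its 4 arrays ranged from -0.31 to 3.58, and ASPN, asporin, had a log2 change of -0.45.

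None of the 4 collagen processing genes was called in any comparison. LOX, lysyl oxidase, which cross-links collagen and elastin, read -1.83, -2.02, -1.25 and -1.90 in controls, -1.72, -3.83, -5.16 and -4.36 after dexamethasone, and -2.74, -2.87, -2.50 and -1.79 after the combination. Dexamethasone 1 lay among the controls and the other 3 arrays were the lowest of all 12, so the log2 change of -2.02, the most negative of the 44, had an SE of 0.57 (limma adjusted p = 0.154). The probe was above background on 3 of the 4 dexamethasone arrays. SERPINH1, a collagen chaperone of the endoplasmic reticulum, read 1.85, 2.00, 1.41 and 1.42 in controls, 2.81, 1.87, 1.92 and 1.78 after dexamethasone, and 1.82, 3.23, 3.02 and 2.62 after the combination. P4HA1, a subunit of the enzyme that hydroxylates proline in collagen, read -0.35, -0.09, 0.33 and -0.46 in controls, 0.89, -0.17, -0.01 and 0.37 after dexamethasone, and 0.29, 1.32, 1.07 and 0.64 after the combination. For both genes combination 2 to 4 lay above all controls and combination 1 did not. Their log2 changes after the combination were 1.001 ± 0.32 and 0.97 ± 0.29, and neither passed (limma adjusted p = 0.268 and 0.249). After dexamethasone alone they were 0.43 and 0.41, where dexamethasone 1 was the highest of the group for both. LOXL1, a relative of LOX that acts on elastic fibres, had log2 changes of -0.44 and 0.14.

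Proteases and their inhibitors included the other called member. MMP2 read 1.88, 2.12, 2.20 and 2.21 in controls, 1.30, 0.99, 0.25 and 0.35 after dexamethasone, and 1.45, 1.59, 1.04 and 1.92 after the combination. The dexamethasone arrays lay below all controls, while the combination lay between them, with array 4 inside the control range and array 3 inside the dexamethasone range. Group means were 2.10 ± 0.15, 0.72 ± 0.51 and 1.501 ± 0.37 (SD, n = 4). The fall after dexamethasone was 1.38 on the log2 scale (SE 0.25, limma adjusted p = 0.0365), and the log2 change after the combination was -0.60 (limma adjusted p = 0.378). After dexamethasone the MMP2 change was -1.36 within scan day 2, against control 4 alone, and -1.72 for dexamethasone 4 against controls 1 to 3. The call was lost with 12 of 24 other settings, among them either scan day block and leaving out any control, dexamethasone 2, 3 or 4, or combination 1, with limma adjusted p-values from 0.00989 to 0.347 and log2 changes from -1.57 to -1.22 over all 24. The second probe of MMP2 gave -1.20.

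TIMP3, an inhibitor of metalloproteases that is held in the matrix, read 3.01, 3.03, 2.93 and 3.47 in controls, 1.87, 2.83, 2.23 and 2.63 after dexamethasone, and 2.58, 2.10, 2.36 and 2.78 after the combination. Both treated groups lay below all controls and overlapped each other, with log2 changes of -0.72 and -0.65 that did not pass (limma adjusted p = 0.215 and 0.319). The identity of this probe is uncertain, because its description names TIMP3 while its symbol and accession name CHRNA3, a nicotinic receptor subunit. TIMP1, a secreted inhibitor, read -0.85, -0.67, -0.37 and -0.45 in controls, 0.38, -0.80, -1.22 and -1.52 after dexamethasone, and -0.34, 0.30, -0.33 and 0.20 after the combination. The combination arrays were just above all controls, and the dexamethasone arrays lay on both sides. TIMP2, which also helps activate MMP2, had log2 changes of -0.38 and -0.19. MMP14, the membrane protease of that activation, had changes of -0.18 and -0.06, with its probe above background on 5 of 12 arrays.

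PDGFRA, a receptor that marks the fibroblasts and fibro-adipogenic progenitors of muscle, was low in both treated groups. It read -0.02, 0.18, 0.25 and -0.28 in controls, -0.68, -1.47, -1.35 and -1.12 after dexamethasone, and -0.92, -1.82, -1.32 and -0.47 after the combination. No treated array reached the control range, and the treated groups overlapped. The log2 changes were -1.18 ± 0.28 and -1.16 ± 0.28 (SE, limma adjusted p = 0.0835 and 0.182), and the treated groups differed by 0.02 ± 0.28. The second probe of PDGFRA gave -1.44 and -1.04. THY1, a surface glycoprotein of fibroblasts, read 0.66, 0.85, 1.44 and 1.26 in controls, 1.56, 0.79, -0.66 and -1.03 after dexamethasone, and 0.38, 2.17, 0.55 and 1.33 after the combination. CTGF, also named CCN2, a matricellular protein known for promoting fibrosis, read 1.30, 1.15, 1.35 and 1.62 in controls, 2.41, 1.69, 1.47 and 1.99 after dexamethasone, and 0.27, 1.74, 1.16 and 2.64 after the combination. Neither gene separated the groups, and for CTGF 3 of 4 dexamethasone arrays were above all controls. TGFB1, a growth factor that induces collagen genes, had log2 changes of 0.30 and 0.15, and DPT, dermatopontin, of -0.24 and -0.03.

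Single animals within the dexamethasone group differed more than controls did. The SD was larger in the dexamethasone group than in controls for 38 of the 44 members (86.4%), against 64.2% of all genes, and the median SD was 0.62 against 0.34 in controls and 0.48 in the combination group. Dexamethasone 1 was the highest of its group for 30 members, below all controls for 18, inside their range for 13 and above it for 13. By contrast, dexamethasone 2, 3 and 4 were below all controls for 26, 29 and 34 members, and dexamethasone 4 was the lowest of all 12 arrays for 19. By kind, dexamethasone 1 stood at 0.76 against the control mean for the glycoproteins, at 0.88 for the proteoglycans and at 0.79 for processing genes, where the other dexamethasone arrays stood between -1.94 and -0.60. For basement membrane genes and collagen VI it stood at -1.08 and -0.80, the lowest of its group in both. For collagen VI this was close to the -0.77 of dexamethasone 4. Members of both kinds differed, as LAMA2 (1.58) and COL6A3 (1.46) were highest of the group on dexamethasone 1. The dim probes of NID1, COL4A1 and COL4A2 were lowest there. In the combination group, array 1 was the lowest for 23 members and array 4 the highest for 23.

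**Figure D4:**
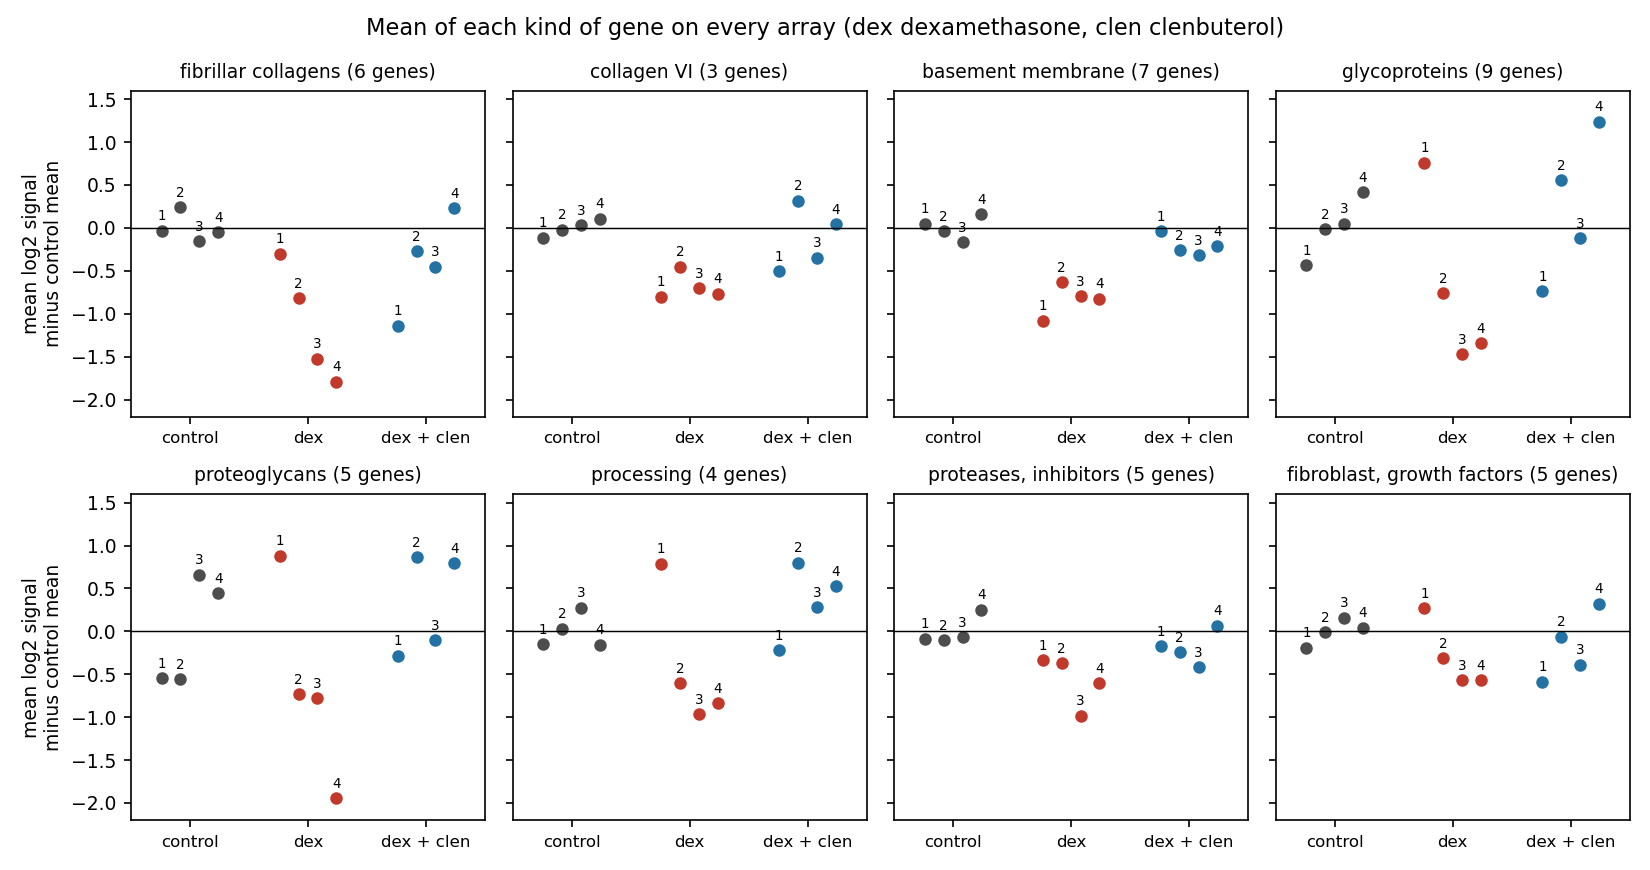
Mean level of each kind of gene on each array, as log2 signal minus the control mean, with arrays numbered within their group. All 4 dexamethasone arrays lie below the controls for basement membrane genes, collagen VI, fibrillar collagens and proteases with inhibitors. Dexamethasone 1 lies at 0.76 to 0.88 for glycoproteins, proteoglycans and processing genes.

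Without dexamethasone 1, limma called 10 members lower after dexamethasone and 2 higher in the combination than after dexamethasone, while calls over all 13660 genes rose from 84 to 261 and from 2 to 74. The 10 were LOX, MMP2, ELN, COL5A2, LAMA2, SPARC, COL15A1, FBN1, PDGFRA and DCN. For LOX the log2 change was then -2.70 ± 0.34 (limma adjusted p = 0.00461), ELN of -1.68 and FBN1 of -1.82. The genes higher in the combination were SPARC, by 1.32, and LOX, by 1.97 on the log2 scale (limma adjusted p = 0.0368 and 0.0396). Without control 1, 2 or 4, in contrast, limma called 0 members after dexamethasone, and 24, 27 and 47 genes in all.

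Markers of other cells moved on the same arrays. TNMD, tenomodulin, a marker of tendon cells, was at 0.93 on control 4 against -7.67, -7.43 and -7.19 on controls 1 to 3, and between -7.43 and -3.74 on the treated arrays. Its value was singled out after it was seen. THBS4, which is abundant in tendon, was also highest on control 4 at 3.67, with 1.32 to 2.29 on the other controls, and it was at 3.43 on dexamethasone 1 and 3.44 on combination 2. The TNMD probe was above background on 1 control, 1 dexamethasone and 3 combination arrays, so its low values are bounds. SCX, MKX and COMP did not pass the filter, and the tendon list rests on 2 of 5 genes. COL12A1 was at -0.19 on control 4 against -2.13 to -1.94 on the other controls, and THBS1, THBS2, TNC and FMOD were also highest in control 4 among the controls. The part of this in the results was not tested.

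**Figure D5:**
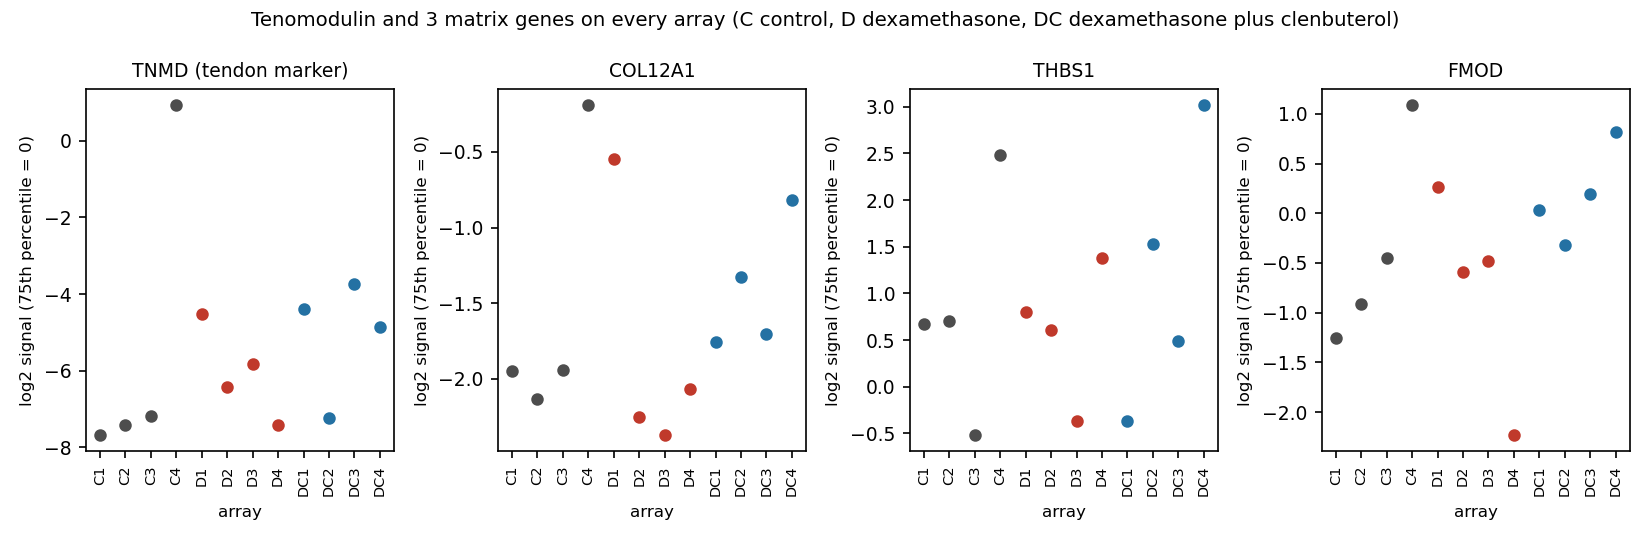
Log2 signal (75th percentile of the array set to 0) of the tendon marker TNMD and of COL12A1, THBS1 and FMOD on each array. Control 4 is the highest array for TNMD, at 0.93, and for COL12A1, at -0.19, and the highest control for THBS1 and FMOD.

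Leukocyte markers, of which 13 of 15 were tested, had a mean of 0.24 on dexamethasone 1 against the control mean and of -1.36, -1.43 and -0.69 on dexamethasone 2 to 4, with controls between -0.23 and 0.17 and the combination between -0.56 and -0.05. CSF1R, a receptor of macrophages, was among the brightest of the list, and CD3E, a part of the T cell receptor complex noted after its value was seen, was called lower after dexamethasone (log2 change -1.74). CD3D and ITGAM did not pass the filter. Dexamethasone 1 therefore differed from the other dexamethasone arrays in this list as it did in the glycoproteins, and the part of leukocytes in the matrix results was not tested. Endothelial markers (12 of 13 tested) ran from -0.17 to 0.25 in controls, -0.04 to 0.60 after dexamethasone and 0.30 to 0.56 after the combination. Muscle fibre markers ran from -0.09 to 0.16, -0.47 to 0.31 and -0.34 to 0.43, with dexamethasone 1 the lowest array. TNNT3 of that list, singled out after its values were seen, ran from 0.99 (control 3) to 7.48 (combination 3). The muscle fibre means therefore depend in part on 1 gene. Smooth muscle and pericyte markers (10 of 10 tested) ran from -0.25 to 0.13, -0.01 to 0.22 and 0.09 to 0.86. Satellite cell markers (3 of 5 tested) ran from -0.15 to 0.16, 0.20 to 0.84 and 0.14 to 0.48, and adipocyte markers (7 of 9) from -0.64 to 0.37, -0.31 to 1.65 and -0.78 to 0.46. Peripheral nerve markers (6 of 7) ran from -0.63 to 0.64, -0.00 to 0.34 and -0.45 to 0.92. Only 2 of 7 blood cell genes were tested, and their mean ran from -0.52 to 0.61, -1.55 to 0.58 and -1.01 to 2.06.

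Beyond the members, 191 other matrix genes were listed, of which 179 had a probe and 136 were tested. This list too was chosen with earlier results of these data known, so its shares are descriptions and no test. After dexamethasone 7 of the 136 were called lower (5.15%) and 0 higher, with a median log2 change of -0.45 and 94 genes below 0, where 0.586% of all genes were called lower and 45.4% lay below 0. With either scan day block 0 of the 136 were called, and leaving out each array in turn gave 1 (without control 1, dexamethasone 2 or dexamethasone 3) to 17 (without dexamethasone 1). DDR2, a collagen receptor, fell by 1.11 on the log2 scale (SE 0.17, limma adjusted p = 0.0165), and RECK, an inhibitor of metalloproteases, fell by 1.65 (limma adjusted p = 0.0311). The RECK probe was above background on 3 of 4 dexamethasone arrays. MFAP2, a microfibril protein, fell by 1.29 and ADAMTSL3, a secreted relative of the ADAMTS proteases, by 1.07. MGP, a matrix protein that inhibits calcification, fell by 2.70, and OSR1, which directs connective tissue progenitors as a transcription factor, by 2.59. After the combination none of the 136 was called, the median was -0.02, and the smallest p-values belonged to OSR1 (log2 change -2.59), ACAN, aggrecan (1.68), and CCN5, a matricellular protein (-2.28). The ACAN probe was above background on 1 control array. For OSR1 the treated groups differed by 0.00 ± 0.49 (SE). Between the treated groups 106 of the 136 were higher in the combination, with a median of 0.36, against 52.3% of all genes and a median of 0.02, and none was called. The smallest p-values there belonged to DDR2 (0.82), KERA, keratocan, a proteoglycan (3.49), and MGP (2.05), and the KERA probe was above background on 1 of 4 dexamethasone arrays.

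Second probes bear on 5 members. After dexamethasone the other probe of DCN gave a log2 change of -0.70 against -1.20, and that of FBN1 -0.87 against -1.35, so the direction was shared and the size was smaller. The other probe of COL1A2 was above background on no array, and its change of 0.26 is not informative.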

How the data were processed

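The members and lists were chosen with earlier results of these data known. Per the file headers, spot intensity (linear scale) was background-subtracted and detrended by Agilent Feature Extraction 9.5.1.1 before the authors deposited it. A deposited value table, also of intensity, ranks spots as the scanner signal does and served as an alternative, and how it was made is not stated in the sources used here. Scanner signals were put on the log2 scale and set relative to the 75th percentile of each array (controls excluded), without outlier spots, and averaged per probe. Of 21475 probes, 14702 were well above background on at least 4 of 12 arrays, and 1 probe per gene (highest mean) left 13660 genes. Gene names, but no positions, were updated from RefSeq genes (assembly ARS-UCD2.0). For 1 member, TIMP3, the probe's names disagree.

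The model had 3 group means over all 12 arrays (lmFit and eBayes of limma 3.58.1, R 4.3.3). P-values are two-sided and adjusted by Benjamini-Hochberg over all genes of a contrast, with calls made below an adjusted p of 0.05. The fit was tested on simulated data. Named with every array are the called members and, in each of 8 kinds, the 3 members of smallest moderated F p-value. Of the other matrix genes, up to 6 called genes per contrast or else the 3 of smallest p are named, and of marker lists up to 3 genes by mean level. Array numbers within a group follow accession order and pair no samples. No 2 arrays were alike, the highest correlation between them being 0.984. Alternatives changed background correction, scaling, filter, probe choice, samples, slide and scan day terms, array weights and threshold, and left out each array.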

Additional observations from a re-analysis of the deposited data

Results flagged for a closer look

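Among 132 sets of 4 arrays (44 genes in 3 groups), 12 held an array that stood far from the other 3, its gap to the nearest, as a share of the range, being over Dixon's critical value, where about 6.6 are expected by chance. In the dexamethasone group, array 1 stood apart upwards for LAMA2 (1.58), COL6A3 (1.46), SERPINH1 (2.81) and COL12A1 (-0.545), and downwards for COL4A2 (-4.30). Array 2 of that group stood apart downwards for COL15A1 (0.123), the gene with the smallest adjusted p, and array 3 for TIMP2 (2.37). In controls, array 4 stood apart upwards for COL12A1 (-0.194) and downwards for ELN (-2.62), and array 2 upwards for NID1 (-2.94). In the combination group, array 2 stood apart upwards for COL6A1 (0.554) and array 1 downwards for COL6A2 (-1.38). Dexamethasone 1 thus accounts for 5 of the 12 sets.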

How the results depend on the processing

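Over 24 alternatives the median log2 change of the members stayed between -0.99 and -0.51 after dexamethasone and between 0.35 and 0.93 for the combination against dexamethasone, while after the combination it ran from -0.34 to 0.09. Counts of calls were less stable. Against the 2 members called lower after dexamethasone, 0 were called with no filter, with scan day as a fixed block and with a 2-level scan day block, 1 with only the 2 groups in the fit, 10 with array weights, 6 at an adjusted p under 0.1, and 7 with control 4 and dexamethasone 1 left out, a setting chosen after the data were seen. Leaving out each array gave 0 to 10. Calls over all genes moved too, from 84 to 25, 0, 13, 57, 286, 212 and 197 in those settings, in that order. For the other matrix genes (7 called), counts were 3 with normexp, quantile scaling or slide as a random block, 1 with no filter, 2 with the groups compared alone, 0 with either scan day block, 17 with array weights, 11 at the looser threshold, 14 without those arrays, and 1 to 17 leaving out each array. After the combination array weights called 1 member (PDGFRA) and 2 other matrix genes, where 128 genes were called in all. The removal of both arrays called 1 other matrix gene and 12 genes in all. Leaving out each array called 0 members and 0 to 1 other matrix genes, with 0 to 11 genes in all. Between the treated groups, leaving out each array called 0 to 2 members and 0 to 9 other matrix genes, with 0 to 74 genes in all. With both arrays out 2 other matrix genes and 18 genes in all were called.

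With scan day as a fixed block some uncalled changes turned sign. After dexamethasone 5 did, of which COL6A2 (-0.27), DPT (0.25) and TGFB1 (-0.13) moved by more than the residual SD, and BGN (0.024) and COL5A1 (0.026) by less. After the combination 15 did. Those that moved by more were CTGF (-0.57), COL12A1 (-1.40), COL6A2 (-0.088), FMOD (-1.11), TGFB1 (-0.38), THBS1 (-1.94), THBS2 (-0.58) and TNC (-1.12), and those that moved by less were ASPN, COL4A2, LOXL1, LUM and THY1 (-0.23 to -0.036), ELN (0.048) and DPT (0.31). Between the treated groups COL3A1 (-0.067) moved by more, and POSTN (-0.71) and PDGFRA (-0.19) by less. In that fit control 4 is the only control that shares a scan day with treated arrays, and every other scan day holds 1 group. Each change against control is therefore that of the treated arrays of scan day 2 against control 4 alone. The cause of the sign changes was not tested further. No paired analysis was possible because array numbers follow accession order. Dim probes (COL4A1, MMP14, NID1) limit what can be read from their changes. Those of LOX, ELN, FBN1, THBS2, TNC and POSTN were above background on 3 of the 4 dexamethasone arrays.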
